A study of Homo sapiens with 12 samples.

Results

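The transcriptional response to tumour necrosis factor alpha (TNFα) was followed in BT549 cells that had received small interfering RNA against c-Jun. BT549 is an established human breast cancer line of the triple-negative, mesenchymal kind. The comparison rests on 6 of the 12 arrays of the study, taken by their titles: 3 arrays of cells given the c-Jun siRNA pool and then TNFα, and 3 of cells given the c-Jun siRNA pool and then vehicle. The other 6 arrays hold the same treatments after a control siRNA and serve for comparison. Transfection lasted 72 hours in all 4 groups and TNFα was present for 6 hours; its dose, the vehicle and the siRNA sequences are not given in the sources used here. Cells were grown in RPMI medium with fetal bovine serum, and total RNA was measured on Affymetrix human gene arrays. Expression is given as log2 values per probe set, so a difference of 1 is a 2-fold change, and differences are TNFα minus vehicle throughout. The labels do not say whether replicates were separate cultures, so the tests speak for the variation among these arrays, which may be technical.

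Expression of 17958 genes was compared, 1 probe set per gene. Array medians lay between 5.62 and 5.68. Some markers went with the labelled cell type: vimentin (VIM) read 12.5 to 12.7 on the 6 arrays. The oestrogen and progesterone receptor genes ESR1 and PGR read 4.30 to 4.51 and 3.61 to 3.74, below the array medians. Not all 8 listed receptor and luminal genes were low, and GATA3 read above the medians on all 6 arrays. The mean over these 8 was 6.44 to 6.58 on the vehicle arrays and 6.36 to 6.39 on the TNFα arrays, above the medians. Of 10 measured leukocyte and 10 measured endothelial markers, 1 each was higher with TNFα, ITGAM (log2 difference 0.69) and ROBO4 (0.58). The list means were 4.91 to 4.98 and 4.84 to 4.90 on the vehicle arrays. On the TNFα arrays they were 5.02 to 5.07 and 4.92 to 4.95. These means all lay below the array medians. PTPRC (3.79 to 3.86), CD3E and PECAM1 (mean of 4.67 over the 12 arrays) read low. Not all listed leukocyte genes did, and the mean of CD68 over the 12 arrays lay in the brighter 50% of tested genes. The name of the array of TNFα replicate 3 reads as a second run of replicate 1. The SD over genes of the difference between that pair was 0.121, against 0.142 and 0.133 for the other pairs of that group. Over all 12 pairs of arrays from a same group it ran from 0.119 to 0.142. Since replicates here may be technical, this spread cannot tell a second run from a replicate. Both arrays were kept, and counts with the pair averaged are given below. The array names hold a code that was read here as a position with a column number, and the labels do not say what it is. Read so, all 3 vehicle arrays have position column 5 and the TNFα arrays columns 7 and 9. No comparison within a column was therefore possible for this treatment, so each list below also has its counts from a fit with the column as a fixed block, which leans on the control siRNA arrays.

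TNFα binds TNFR1 and TNFR2 and, through TRAF and RIPK1 complexes, activates the IκB kinase, which frees NF-κB dimers to enter the nucleus, and mitogen-activated protein kinases, which act on AP-1. AP-1 is a family of dimers of JUN, FOS, ATF and MAF proteins, with c-Jun (JUN) as a strongly activating subunit. NF-κB induces its own inhibitors, which limits the response in time, and it also induces IRF1, through which TNFα reaches part of the interferon-stimulated gene set.

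JUN was measured first, as a check of the siRNA. Its probe set (7916609) read 9.82, 9.85 and 9.81 on the c-Jun siRNA vehicle arrays and 10.36, 10.33 and 10.39 after TNFα, against means of 10.35 and 11.07 with control siRNA. The effect of c-Jun siRNA on JUN was -0.52 ± 0.032 (standard error) in vehicle and -0.71 ± 0.032 under TNFα (limma, Benjamini-Hochberg adjusted p = 4.48e-10 and 9.26e-12), which leaves 69.5% and 61.1% of the control signal on this array. The transcript was thus reduced and not removed, and it still rose with TNFα by 0.53 ± 0.032 (adjusted p = 1.94e-10), to the level of unstimulated control cells. Protein was not measured.

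TNFα changed a large share of the transcriptome in cells given c-Jun siRNA. At a Benjamini-Hochberg adjusted p under 0.05, 5320 of 17958 genes were called (29.6%). Of these 2036 were higher (11.3% of genes) and 3284 lower (18.3%), and these shares are the background for the list counts below that carry no block. Rises were larger than falls: 250 genes rose at least 2-fold (1.39%) and 86 fell at least 2-fold (0.479%), and the extremes were 7.49 and -2.80. In 1961 of the higher and 3185 of the lower calls the 3 arrays of 1 group all lay beyond those of the other (10.9% and 17.7% of genes). Lower calls made up 61.7% of the total as deposited and 45.6% when arrays were centred on their medians, so the split of small changes depends on the scale. With the position column as a fixed block 2376 of the 17958 genes were called, 1051 higher and 1325 lower. These lower shares are the background for the list counts given with that block. The counts of 2-fold changes with the block were 252 and 88. In bulk RNA, fewer cells expressing a gene and less RNA per cell cannot be told apart.

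**Figure D1:**
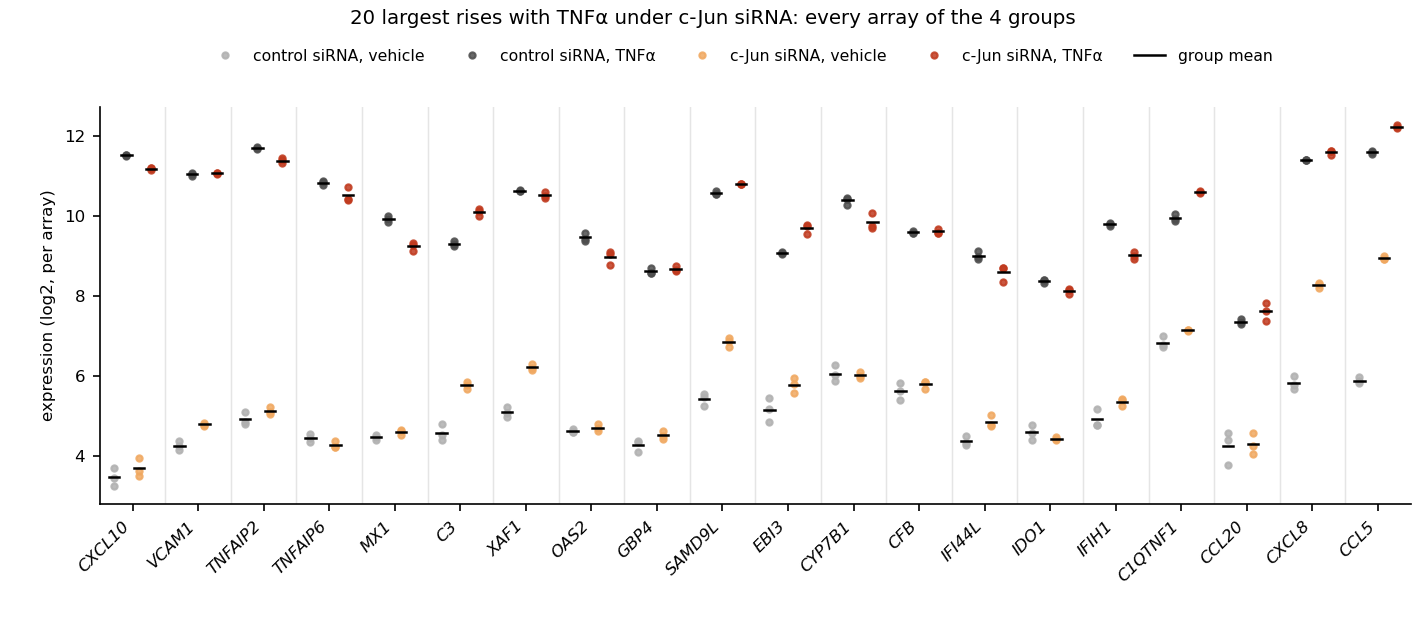
Log2 expression (vertical axis) on every array for the 20 genes with the largest rises under c-Jun siRNA; points are arrays, bars group means of 3 arrays. For all 20, the c-Jun siRNA TNFα arrays (red) lie above the c-Jun siRNA vehicle arrays (orange), from CXCL10 (3.52 to 3.96 against 11.16 to 11.21) to CCL5, which already read 8.94 to 9.01 in vehicle.

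The 20 largest rises ran from 7.49 to 3.28. CXCL10, a chemokine that draws activated T cells (probe set 8101126), read 3.52, 3.96 and 3.63 in vehicle and 11.16, 11.21 and 11.21 with TNFα. The difference was 7.49 ± 0.101 (adjusted p = 1.57e-19), from the low part of the array range of 2.27 to 13.97 to its upper part. VCAM1, a leukocyte adhesion molecule, read 4.78, 4.84 and 4.76 and then 11.07, 11.09 and 11.08, a difference of 6.28 ± 0.057. TNFAIP2 (6.25 ± 0.067) and TNFAIP6, a hyaluronan-binding protein (6.24 ± 0.078), rose by similar amounts. Behind them came the antiviral genes MX1 (4.64), XAF1 (4.30), OAS2 (4.27), GBP4 (4.15), SAMD9L (3.95), IFI44L (3.74) and IFIH1 (3.65), and complement genes C3 (4.32 ± 0.083) and CFB (3.82 ± 0.084). The rest of the 20 were EBI3, a subunit of interleukin-27 (3.92), CYP7B1, an oxysterol hydroxylase (3.82), IDO1, which degrades tryptophan (3.69), C1QTNF1 (3.45), and the chemokines CCL20 (3.32), CXCL8 (3.32) and CCL5 (3.28). None of these 20 lost its call under the alternatives tried.

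Promoter sequence is shown for 7 responders, chosen to set NF-κB, interferon and AP-1 motif matches beside the values that follow. Sequences are from RefSeq (GRCh38.p14), 5′ to 3′ on the gene's strand, as stretches of a window from 250 bases before to 50 after the annotated start. Capitals mark matches, on either strand, to an NF-κB motif (GGG and TTTCC with any 2 bases between, or the looser GGG and TTCC with any 3 between, which contains it), the core of an interferon-stimulated response element (TTTC and TTTC with any 2 between) or an AP-1 motif (TGANTCA). The stretches are TNFAIP3 at chr6:137867174-137867228 (plus strand), with adjacent NF-κB matches; CCL20 at chr2:227813747-227813791 (plus), with an NF-κB match; and TAP1 at chr6:32853755-32853849 (minus), with overlapping interferon-element matches and an NF-κB match. CXCL10 at chr4:76023648-76023732 (minus) has an interferon-element match and a looser NF-κB match, IFIT1 at chr10:89392493-89392542 (plus) has separate interferon-element matches, and CXCL8 at chr4:73740419-73740503 (plus) and EBI3 at chr19:4229393-4229427 (plus) each have an AP-1 match. The window of EBI3 also holds a looser NF-κB match at -214 from the start, outside the stretch shown.
TNFAIP3: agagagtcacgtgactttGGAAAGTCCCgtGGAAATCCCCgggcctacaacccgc
CCL20: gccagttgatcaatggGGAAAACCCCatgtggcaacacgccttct
TAP1: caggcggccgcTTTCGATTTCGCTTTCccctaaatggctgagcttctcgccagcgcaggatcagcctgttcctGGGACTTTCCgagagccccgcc
CXCL10: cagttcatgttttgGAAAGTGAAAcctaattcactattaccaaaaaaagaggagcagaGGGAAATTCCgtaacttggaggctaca
IFIT1: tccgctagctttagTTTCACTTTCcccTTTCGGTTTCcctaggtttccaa
CXCL8: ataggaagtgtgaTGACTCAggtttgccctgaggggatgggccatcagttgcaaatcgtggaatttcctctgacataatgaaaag
EBI3: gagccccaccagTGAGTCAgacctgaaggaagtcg
Of the 17958 genes, 13861 have a window. The stricter NF-κB motif is in 2.02% of these, the looser in 7.12%, the interferon-element core in 3.04% and the AP-1 motif in 5.58%. A window exists for 184 of the 250 genes that rose at least 2-fold and for 63 of the 86 that fell, under 80% in both, so a comparison of motif shares between these sets is void and none is given. A match is a description of the letters, not a binding site, and lower-case letters may hold sites that the searched motifs miss.

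**Figure D2:**
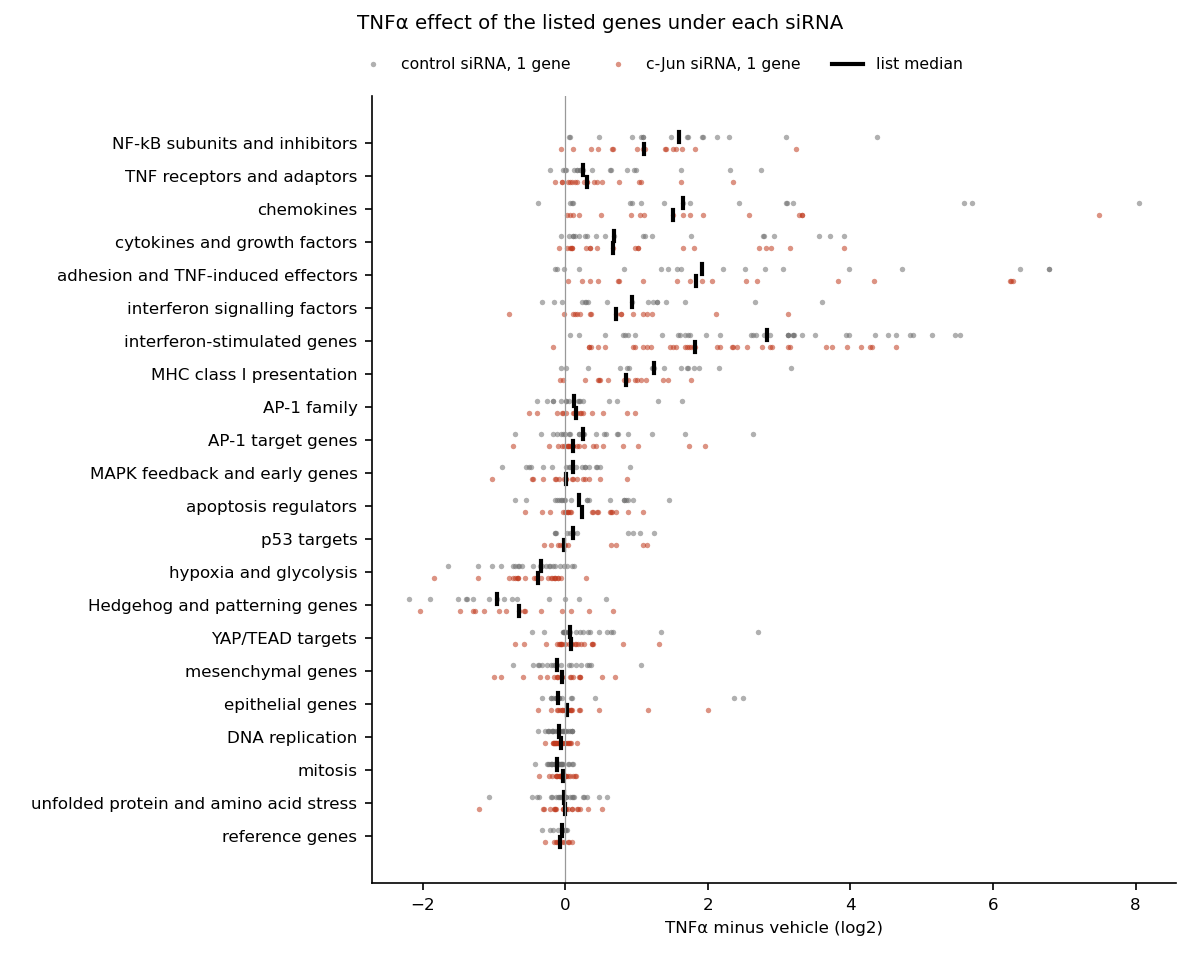
TNFα effect (log2, horizontal axis) for each measured gene of 22 lists with control siRNA (grey) and c-Jun siRNA (red); black bars are list medians. Interferon-stimulated genes show the widest gap between medians, 1.81 with c-Jun siRNA against 2.84 with control siRNA.

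NF-κB subunits and inhibitors rose almost throughout: 14 of 16 were called higher and none lower, with a median of 1.1 beside -0.02 over all genes, and 14 were also called with the position column as a block. TNFAIP3, the deubiquitinase A20 that shuts off TNF receptor signalling, read 7.61, 7.77 and 7.62 in vehicle and 10.92, 10.97 and 10.84 with TNFα, a rise of 3.24 ± 0.056 (adjusted p = 4.16e-18). NFKBIA, the inhibitor IκBα, read 10.75, 10.86 and 10.70 and then 12.62, 12.52 and 12.62, a rise of 1.82 ± 0.048. Groups did not overlap for either gene. Among the other listed genes that are not subunits NFKBIZ rose by 1.64, TNIP1 by 1.56, NFKBIE by 1.52 and BCL3 by 1.00. Of the subunits, RELB rose by 1.41, NFKB1 by 1.40, NFKB2 by 1.11, REL by 0.45 and RELA, which carries the main transactivation domain, by 0.35. TNIP2 (0.10) and N4BP1 (-0.06) did not pass the test.

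Of 19 measured TNF receptors, adaptors and ubiquitin enzymes, 12 rose and 1 fell (median 0.30), or 9 and 0 with the position column as a block. The receptor genes differed: TNFRSF1A, which encodes TNFR1, read 10.86 on average in vehicle and 10.81 with TNFα (difference -0.05 ± 0.034, adjusted p = 0.36), while TNFRSF1B, which encodes TNFR2, rose by 0.76. TRAF1, an adaptor, rose most (2.35 ± 0.083), followed by CYLD, a deubiquitinase that opposes NF-κB (1.62), BIRC2, the ligase cIAP1 (1.06), and the kinase MAP3K8 (1.04). SHARPIN, a subunit of the linear ubiquitin ligase, fell by 0.15, a call lost with that block.

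Chemokines rose in 13 of 17 cases with none lower, 12 were called with the position column as a block, and the median was 1.51 (1.65 with control siRNA). Besides CXCL10, CCL20, CXCL8 and CCL5, the calls included CXCL11 (2.58), CXCL5 (1.93), CXCL2 (1.75), CX3CL1 (1.66) and CCL2 (1.51). CCL20 had the widest spread of these, with 4.26, 4.58 and 4.06 in vehicle and 7.38, 7.64 and 7.84 with TNFα. CCL2, which attracts monocytes, started from 11.26, 11.30 and 11.33 and reached 12.78, 12.84 and 12.79. CXCL9 (0.10), CXCL12 (0.07), CCL8 (0.03) and CCL11 (0.19) did not pass.

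Among cytokines and growth factors 15 of 21 rose and none fell (median 0.67, or 0.35 with values floored at 5), and 11 were called higher with the position column as a block. After EBI3 the largest rises were LIF (3.15 ± 0.074), IL6 (2.88 ± 0.050), TNF itself (2.82 ± 0.097), INHBA, a subunit of activin A (2.72), IL7 (1.80) and CSF1, the macrophage growth factor (1.65). IL6 read 6.87 on average in vehicle and 9.75 with TNFα. TNF, the gene of the added cytokine, rose from 4.90 to 7.72. Of the inflammatory interleukin-1 genes, IL1B rose by 0.67 and IL1A (0.02), IL18 (0.06) and IL33 (-0.09) did not pass. The interferon beta gene IFNB1 read 3.49 in vehicle and 3.57 with TNFα (adjusted p = 0.36), near the bottom of the array range.

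Adhesion molecules and other TNFα-induced effectors rose in 16 of 18 cases (median 1.83), or 14 with the position column as a block. ICAM1 rose by 2.53 to 12.4, SOD2, the mitochondrial superoxide dismutase, by 2.05 to 12.2, SELE by 1.74 and PTGS2, the inducible prostaglandin synthase, by 1.56. MMP9, a gelatinase, read 5.95 in vehicle and 6.18 with TNFα (0.23, adjusted p = 0.085), and PLAUR, the urokinase receptor, differed by 0.04 (adjusted p = 0.43).

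Interferon pathway genes rose with them. Of 17 interferon signalling factors 14 rose and 1 fell (median 0.72), or 11 and 1 with the position column as a block. IRF1 read 9.59, 9.50 and 9.68 in vehicle and 11.72, 11.67 and 11.72 with TNFα, a rise of 2.11 ± 0.048 with no overlap. STAT5A, a cytokine-activated transcription factor, rose most, by 3.13 ± 0.086 from about 5.72 to 8.85. IRF9, the DNA-binding part of the interferon complex ISGF3, rose by 1.21, JAK2 by 1.15, IFNAR2, a type I interferon receptor chain, by 1.1, and IFNGR1 by 0.94. SOCS3, an inhibitor of cytokine signalling, was the member that fell (by 0.79). Calls for SOCS1 (0.20), JAK1 (0.13) and STAT3 (0.10) ended with that block.

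Of 38 measured interferon-stimulated genes 37 rose and none fell, with a median of 1.81; MX2 (-0.18, adjusted p = 0.12) was the exception, and 32 were called with the position column as a block. MX1, a GTPase that blocks viral replication, read 4.66, 4.64 and 4.54 in vehicle and 9.29, 9.13 and 9.33 with TNFα. IFIT1, which binds viral RNA, read 6.07, 5.80 and 6.10 and then 8.97, 8.75 and 8.95, a rise of 2.90 ± 0.079. Rises were smallest for ISG15 (0.33), IFI27 (0.33), ISG20 (0.36), HERC5 (0.46) and TRIM22 (0.56), and the first 4 of these were not called with that block. Averaged over the 38 genes, the level was 6.04, 6.05 and 6.05 in vehicle and 8.19, 8.07 and 8.18 with TNFα.

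Genes of peptide presentation by MHC class I rose in 15 of 17 cases (median 0.85), and 15 were called with the position column as a block. TAP1, a subunit of the peptide transporter, read 9.87, 9.97 and 9.97 and then 11.71, 11.68 and 11.70, a rise of 1.76 ± 0.034. The immunoproteasome genes PSMB10 (1.44), PSMB9 (1.14) and PSMB8 (0.85), the transactivator NLRC5 (1.37), the peptidases ERAP2 (1.01) and ERAP1 (0.87), and the chains HLA-B (1.06), HLA-C (0.60) and B2M (0.48) rose. HLA genes are close relatives, and signal shared between their probes could not be separated here. The chaperones CALR (-0.04) and PDIA3 (-0.08) did not pass.

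The AP-1 family itself was mixed: 7 of 16 members rose and 2 fell (median 0.14), or 5 and 2 with the position column as a block. JUNB read 9.89, 9.93 and 9.76 in vehicle and 10.81, 10.77 and 10.92 with TNFα, a rise of 0.98 ± 0.047 that was larger in value than that of JUN. MAFF rose by 0.86, FOSL1 by 0.37, FOSL2 by 0.24, BATF3 by 0.22 and MAFG by 0.16; the last pair lost the call with that block. JDP2, a repressor of AP-1, fell by 0.51. FOS (-0.40) also fell but lost the call with that block, under which ATF7 was the other lower call. Among the rest JUND (-0.05), ATF3 (0.21), FOSB (0.01) and ATF2 (-0.03) did not pass.

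Genes listed as AP-1 targets rose in 11 of 23 cases and fell in 3 (median 0.11), or 7 and 2 with the position column as a block. The collagenase MMP1 read 7.40, 7.45 and 7.20 in vehicle and 9.43, 9.22 and 9.29 with TNFα, a rise of 1.96 ± 0.067. MMP3 rose by 1.74 ± 0.116, HMOX1, haem oxygenase, by 1.01 ± 0.029, the transcription factor ETS1 by 0.81, CCND1 by 0.52, HBEGF by 0.43 and the collagen cross-linker LOX by 0.38. VEGFA fell by 0.73. The invasion-related genes PLAU (0.04), ITGA2 (0.04), MMP13 (0.06), MMP10 (-0.05) and SPP1 (0.02) did not pass, and the last 4 read below 4.1 on all 6 arrays.

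MAPK feedback and early genes split 6 higher and 5 lower of 18 (median 0.01), and 1 higher and 4 lower with the position column as a block. IER5 rose by 0.87 and DUSP10 by 0.49, calls that both ended with that block. DUSP4, a nuclear ERK phosphatase, fell by 1.03 and SPRED2, an inhibitor of RAS signalling, by 0.47.

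Apoptosis regulators of both kinds rose: 10 of 20 were higher and 3 lower (median 0.23, or 0.06 with values floored at 5), with 8 and 1 when the position column was a block. The death receptor FAS rose by 1.09 ± 0.041, PMAIP1, the BH3-only protein NOXA, by 0.88, and BID by 0.71, and the protective CFLAR (c-FLIP) by 0.66 and MCL1 by 0.45. BCL2L11 (BIM) fell by 0.56. Of 12 p53 targets 4 were higher, among them CDKN1A (1.15), the cell cycle inhibitor p21, and ZMAT3 (0.72), and 2 lower, or 4 and 0 with that block; MDM2 (-0.04) did not pass.

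**Figure D3:**
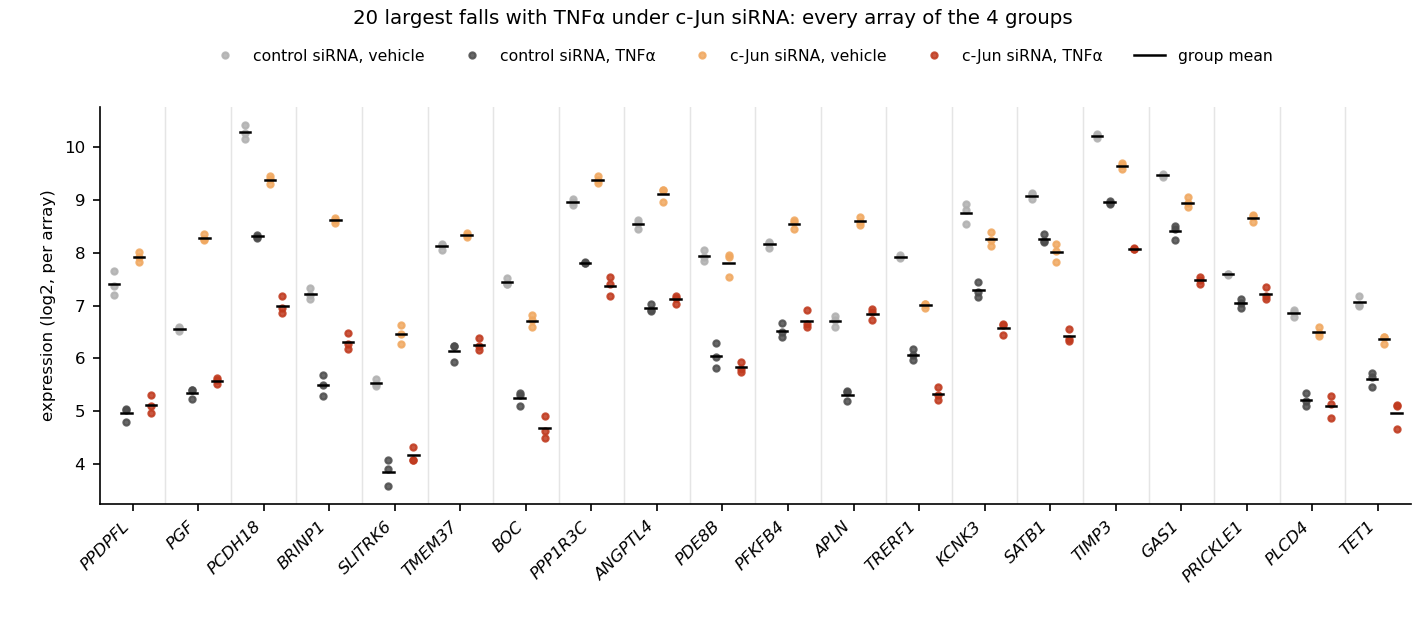
Log2 expression (vertical axis) on every array for the 20 genes with the largest falls under c-Jun siRNA; points are arrays, bars group means of 3 arrays. In each gene the c-Jun siRNA TNFα arrays (red) lie below the c-Jun siRNA vehicle arrays (orange); PGF starts at 8.24 to 8.37 with c-Jun siRNA against 6.56 on average with control siRNA and ends at 5.51 to 5.62.

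The 20 largest falls ran from -2.80 to -1.41. PPDPFL read 7.91, 7.83 and 8.01 in vehicle and 5.29, 5.09 and 4.96 with TNFα, a change of -2.80 ± 0.108. PGF, placental growth factor, a ligand of the VEGF receptor FLT1, read 8.37, 8.24 and 8.25 and then 5.58, 5.62 and 5.51 (-2.71 ± 0.071, adjusted p = 1.65e-15). ANGPTL4, an inhibitor of lipoprotein lipase, fell by 2.01 and APLN, apelin, by 1.76. PCDH18, a protocadherin (-2.39 ± 0.071), BRINP1 (-2.32), SLITRK6 (-2.30), TMEM37 (-2.08), BOC (-2.04), PPP1R3C, a glycogen-targeting phosphatase subunit (-2.01), and PDE8B (-1.98) followed. The rest of the 20 were PFKFB4 (-1.84), TRERF1 (-1.68), the potassium channel KCNK3 (-1.67), the chromatin organiser SATB1 (-1.60), the metalloproteinase inhibitor TIMP3 (-1.57), GAS1 (-1.47), PRICKLE1 (-1.44), PLCD4 (-1.41) and TET1 (-1.41). GATA3, a luminal transcription factor, fell by 1.24 from 9.12, 9.36 and 9.10 to 8.05, 7.96 and 7.85.

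Hypoxia and glycolysis genes fell in 19 of 22 cases and rose in 1 (median -0.38), with 13 falls and 0 rises called when the position column was a block. PFKFB4, which sets fructose-2,6-bisphosphate, read 8.62, 8.58 and 8.46 in vehicle and 6.65, 6.59 and 6.91 with TNFα. ENO2 fell by 1.22, PDK1 by 0.79, VEGFA by 0.73, PFKFB3 by 0.71, SLC2A1, the glucose transporter GLUT1, by 0.66, and HK2 by 0.66. The most abundant glycolytic transcripts moved little: LDHA fell by 0.15, PGK1 by 0.16 and ENO1 by 0.11. These 3 calls, and that of ADM, adrenomedullin, which rose (0.28), were lost with that block.

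Hedgehog receptors and HOXB genes fell together: 11 of 15 were lower and 2 higher (median -0.65), and 10 falls and 2 rises were called with the position column as a block. The Hedgehog co-receptors BOC (-2.04), GAS1 (-1.47) and CDON (-0.93) and the receptor PTCH1 (-1.29) fell, as did SMO (-0.58). PTCH1 is also a target of the pathway, and GLI1, another target, differed by -0.04 at a level of about 5.1. HOXB6 (-1.26), HOXB3 (-1.14), HOXB5 (-0.83), HOXB4 (-0.65), HOXB7 (-0.56) and HOXB2 (-0.35) were all lower, with HOXB2 not called under that block. HHIP, the secreted Hedgehog antagonist, went the other way and rose by 0.67 ± 0.066, from 6.95, 7.08 and 7.06 to 7.67, 7.70 and 7.75. GLI3 rose by 0.33.

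Mesenchymal genes moved in both directions, 5 higher and 8 lower of 19 (median -0.05), or 3 and 5 with the position column as a block. ZEB2, a repressor of E-cadherin (probe set 8055624), read 8.75, 8.71 and 8.68 in vehicle and 9.35, 9.46 and 9.40 with TNFα, a rise of 0.69 ± 0.039 (adjusted p = 9.23e-11). PRRX1 rose by 0.51 and FN1 by 0.20. The related repressors SNAI2 (-0.90 ± 0.051) and SNAI1 (-0.59 ± 0.079) fell, and so did CDH11, a mesenchymal cadherin, from 11.31, 11.27 and 11.26 to 10.28, 10.26 and 10.27. ZEB1 fell by 0.15, a call lost with centred arrays and with the position column as a block, and TWIST1 (-0.12) did not pass, though it was called lower with that block. Epithelial genes were called higher in 5 of 20 cases and lower in 1 (2 and 0 with that block): ELF3, an epithelial transcription factor, rose by 2.00 and the tight junction gene CLDN1 by 1.15, while EPCAM (0.09) and the epithelial transcription factor GRHL2 (0.00) did not pass. CDH1, E-cadherin, was called higher (0.48, from 5.00 to 5.48, below the array medians), a call lost with that block.

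Of 23 YAP/TEAD targets 9 rose and 3 fell (median 0.08), or 5 and 3 with the position column as a block. NUAK2, a kinase, rose by 1.32 and WWC1 by 0.81, while the widely used target genes CCN2 (0.00) and ANKRD1 (0.16) did not pass. TGFB2 fell by 0.71. Proliferation genes changed little: 1 of 26 replication genes was higher and 11 lower (median -0.06, lowest -0.28), and 3 of 26 mitosis genes were higher and 7 lower (median -0.04, or 0.01 with centred arrays), with 2 lower and 0 higher in each list when the position column was a block. Stress genes of the unfolded protein and amino acid responses were higher in 3 of 22 and lower in 7 (median 0.00), or 1 and 4 with that block; XBP1 rose by 0.51 and VLDLR fell by 1.21. Among 10 reference genes 1 was called higher and 4 lower, within -0.29 and 0.10, and none with that block.

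**Figure D4:**
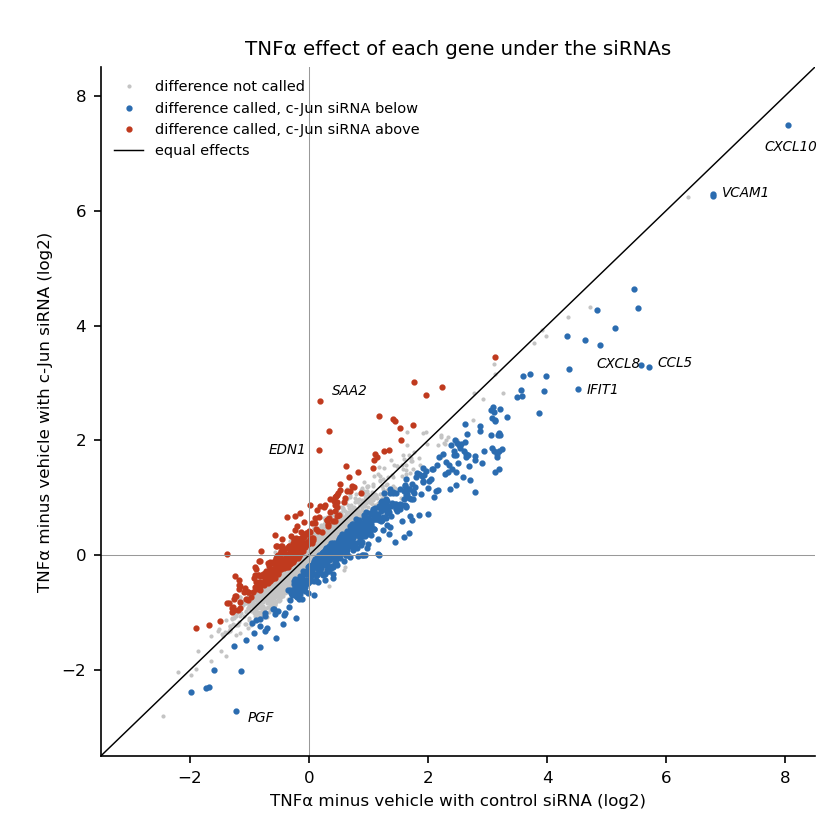
TNFα effect of each of 17958 genes with control siRNA (horizontal axis, log2) and with c-Jun siRNA (vertical axis, log2); the line marks equal effects. Genes with a called difference below (blue, 645) or above (red, 338) lie off the line, most of the larger rises on its lower side.

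Set beside control siRNA, with which it shares no array, most of the same genes responded, and many of the rises were smaller. With control siRNA 6416 genes were called (35.7%), 2486 higher (13.8%) and 3930 lower (21.9%). The 1607 genes called higher with both made up 64.6% of the control calls and 78.9% of the c-Jun siRNA calls; for the 2618 lower calls in common the shares were 66.6% and 79.7%. At least 2-fold, 322 genes rose (1.79%) and 101 fell (0.562%). Of these 322, 319 were called higher with c-Jun siRNA, and their median rise was 1.31 against 1.62. Because choosing genes by 1 treatment raises its own values, the choice was also made the other way: the 250 genes that rose at least 2-fold with c-Jun siRNA had medians of 1.56 with c-Jun siRNA and 1.83 with control siRNA. For falls the order depended on the choice. The 86 genes that fell at least 2-fold with c-Jun siRNA had medians of -1.21 with c-Jun siRNA and -1.17 with control siRNA, and the 101 chosen with control siRNA had -1.02 and -1.23. Across all genes the effects correlated with r = 0.90, a description over genes that are not independent replicates.

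The difference between the TNFα effects was tested directly as an interaction. It was called for 983 genes (5.47%), 645 below (3.59%) and 338 above (1.88%), where below means a more negative value with c-Jun siRNA. At a size of at least 2-fold there were 44 below (0.245%) and 7 above (0.039%). With the position column as a fixed block 531 were called and at an adjusted p under 0.01 553; with centred arrays the share below was 54.9% in place of 65.6%. Of the 322 strong risers of control cells the difference was called toward a smaller effect in 200 and a larger in 16, and of the 250 of c-Jun siRNA cells in 117 and 33.

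**Figure D5:**
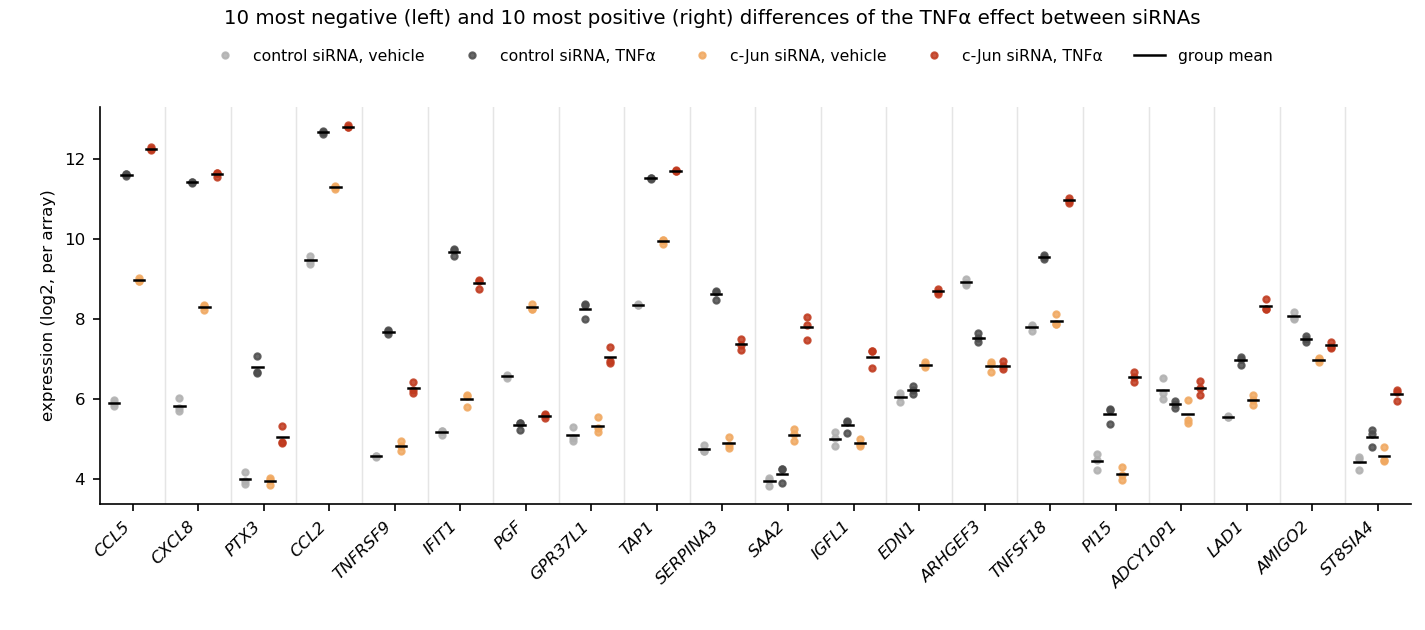
Log2 expression (vertical axis) on every array for the 10 genes with the most negative (left) and 10 with the most positive (right) called differences of the TNFα effect; points are arrays, bars group means of 3 arrays. CCL5, CXCL8, CCL2 and TAP1 start higher with c-Jun siRNA (orange) and end above the mean control TNFα level, while IFIT1 and PTX3 end below it, at means of 8.89 against 9.68 and 5.04 against 6.79.

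The genes with the most negative differences took distinct routes. CCL5, which attracts T cells and monocytes (probe set 8014316), read 5.90 in vehicle and 11.60 with TNFα on average with control siRNA, and 9.01, 8.95 and 8.94 and then 12.28, 12.23 and 12.22 with c-Jun siRNA. Its rise was thus 3.28 against 5.71 (difference -2.43 ± 0.058, adjusted p = 1.46e-14), while its stimulated level was higher. CXCL8, interleukin-8, went from 5.82 to 11.41 with control siRNA and from 8.31, 8.34 and 8.22 to 11.63, 11.55 and 11.64 with c-Jun siRNA (difference -2.27 ± 0.086). CCL2 (-1.69) and TAP1 (-1.40) had the same form, a higher start and a stimulated mean above that of control cells (12.80 against 12.66, and 11.70 against 11.51). In contrast PTX3, a pattern recognition protein, rose by 2.80 to 6.79 with control siRNA and from 3.97, 4.03 and 3.85 to 4.92, 5.32 and 4.89 with c-Jun siRNA (difference -1.70 ± 0.172); its rise with c-Jun siRNA was not called with values floored at 5. TNFRSF9, the receptor 4-1BB, reached 7.68 with control siRNA and 6.15, 6.22 and 6.43 with c-Jun siRNA (-1.67), and SERPINA3 8.61 and 7.23, 7.35 and 7.49 (-1.40). IFIT1 (-1.62) combined a higher start (5.99 against 5.16) with a lower end (8.89 against 9.68). GPR37L1 (-1.44) ended at 7.04 against 8.24, and PGF (-1.49), a falling gene, began higher and fell further.

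MMP9 belongs beside these, though it was chosen for mention after its values were seen: it rose by 1.44 with control siRNA, from 5.85 to 7.29, and did not pass with c-Jun siRNA (difference -1.21, adjusted p = 1.44e-05). JUN and ZEB2 rose less with c-Jun siRNA as well, with differences of -0.19 ± 0.045 (adjusted p = 0.017) and -0.38 ± 0.056 (adjusted p = 2.48e-04). The call for JUN ended with the position column as a block (adjusted p = 0.055), without the mean-variance trend (0.081) and without replicate 1 of control siRNA with TNFα (-0.16, adjusted p = 0.054). The call for ZEB2 ended when its probe sets were averaged (-0.35, adjusted p = 0.12).

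By list, called differences below numbered 28 of 38 interferon-stimulated genes with none above, 12 of 17 MHC class I genes with none above, 10 of 17 interferon factors, 9 of 16 NF-κB genes and 7 of 17 chemokines, beside 3.59% of all genes. With the position column as a block they were 23, 11, 6, 7 and 6, beside 376 of all 17958 genes. The mean level over the list separates the forms seen in single genes. For interferon-stimulated genes it was 5.65 to 5.70 in vehicle and 8.38 to 8.46 with TNFα under control siRNA, and 6.04 to 6.05 and 8.07 to 8.19 under c-Jun siRNA: a higher start and a lower end, with no overlap of arrays at either. For MHC class I genes the values were 8.85 to 8.86 and 10.11 to 10.17, against 9.49 to 9.53 and 10.29 to 10.30, so the end was higher too. For chemokines the TNFα arrays overlapped, at 7.52 to 7.64 and 7.60 to 7.64, after vehicle levels of 5.25 to 5.34 and 5.72 to 5.85. Differences within the AP-1 family were called in 4 of 16 members, all below, and in 2 with that block. They were JUN, JUNB, MAFF and FOSL1.

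A smaller group had a called difference above, a more positive TNFα effect with c-Jun siRNA. Such a difference can be a larger rise, or a fall that was smaller or absent. SAA2, an acute-phase serum amyloid, read 5.11, 4.95 and 5.25 in vehicle and 7.85, 7.48 and 8.05 with TNFα, a rise of 2.69 ± 0.126, against 0.19 (adjusted p = 0.30) with control siRNA. The difference of 2.50 ± 0.179 was the largest above. SAA1 is a near-identical neighbour, and signal shared between them could not be separated. IGFL1 rose by 2.16 against 0.34 (difference 1.82). EDN1, the vasoconstrictor endothelin-1, read 6.78, 6.86 and 6.91 and then 8.75, 8.61 and 8.68, a rise of 1.83 against 0.17, which was not called. TNFSF18, the ligand GITRL, rose in both, by 3.01 and 1.76, and PI15 by 2.42 and 1.18. LAD1 (0.95), ST8SIA4 (0.92) and the pseudogene ADCY10P1 (1.02, not called with values floored at 5) followed, and the c-Jun siRNA call of ADCY10P1 ended with the position column as a block. ARHGEF3 (difference 1.40) did not respond more: it fell by 1.39 with control siRNA and was not called with c-Jun siRNA. It read 6.66 to 6.93 on all 6 c-Jun siRNA arrays. HMOX1 rose by 1.01 against 0.43 (difference 0.58), the only called difference above among the AP-1 targets.

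Direction was opposite for 39 of the 4264 genes called with both siRNAs, 16 higher and 23 lower with c-Jun siRNA. HHIP rose by 0.67 with c-Jun siRNA and fell by 0.23 with control siRNA (difference 0.90, adjusted p = 4.40e-06). DTX4, a Notch regulator, rose by 0.51 against -0.20. AMOTL2, a YAP-binding protein, fell by 0.27 against a rise of 0.32, and PKDCC changed by -0.43 against 0.27. These 4 kept their c-Jun siRNA call under every alternative tried. AMIGO2 (0.36 against -0.57), EGR1 (0.34 against -0.31), ADM (0.28 against -0.45) and ID2, an inhibitor of differentiation (-0.30 against 0.15), lost it with the position column as a block, and whether the array position has a part in them was not tested.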

How the data were processed

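Total RNA of 12 BT549 samples, 3 in each of 4 groups, was measured on Affymetrix human gene arrays. The authors' deposited table holds values whose range fits log2; the base was inferred from it. Affymetrix Expression Console 1.1 and PLIER are named in the submitters' processing notes without a role, and the normalization is not given in the sources used here. Groups were taken from the sample titles. Of 33297 probe sets, 19181 carried 1 gene symbol, 2055 several and 12061 none; each of 17958 genes was represented by its brightest such probe set, averaged across the 12 arrays. Background and normalization were left as deposited.

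All 12 arrays were fitted with limma 3.58.1 (R 4.3.3), a mean per group and moderated variances with a mean-variance trend. Contrasts were TNFα minus vehicle under each siRNA and their difference. P-values were two-sided and Benjamini-Hochberg adjusted over 17958 genes; a call means an adjusted p under 0.05, by limma throughout. The median standard error was 0.0649, and 0.0918 for the difference. With 3 arrays per group the number of arrays limits the precision. On simulated data with 17958 genes, 67 were changed by 0.25, 67 by 0.5 and 66 by 1. There the c-Jun siRNA contrast recovered 47.8% of changes of 0.25 and 97.0% of changes of 0.5, and 7.47% of its calls were false. In the data 29.6% of genes were called, a far larger share than was changed in the simulation, so these figures do not carry over to the data.

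Named genes were JUN and ZEB2; the 20 largest called rises and falls with groups that did not overlap; up to 6 called members of each list with the largest change, and all measured members of 5 lists; the 10 most negative and 10 most positive called differences, also among genes called with c-Jun siRNA; and genes called in opposite directions. Other list members were named to complete a count, or to show members that did not pass, after their values were seen. The members and the 26 lists, with 471 of 507 entries measured, were chosen with earlier results of these data known. Same-numbered arrays of different groups did not deviate together (correlations of -0.059 to 0.088), so no pairing was used. The alternatives tried were other variance models, normalization, floors, filters, blocks, weights and arrays left out.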

Additional observations from a re-analysis of the deposited data

Results flagged for a closer look

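The TNFα effects under the siRNAs differed, by limma's test of the difference, in 983 genes. Among the genes named, the difference (c-Jun siRNA minus control siRNA, log2) was -2.43 for CCL5, -2.27 for CXCL8, -1.70 for PTX3, -1.69 for CCL2, -1.67 for TNFRSF9, -1.62 for IFIT1, -1.49 for PGF, -1.44 for GPR37L1, -1.40 for TAP1, -1.40 for SERPINA3, -0.38 for ZEB2 and -0.19 for JUN. On the other side it was 2.50 for SAA2, 1.82 for IGFL1, 1.66 for EDN1, 1.40 for ARHGEF3, 1.25 for PI15, 1.25 for TNFSF18, 1.02 for ADCY10P1, 0.95 for LAD1, 0.92 for ST8SIA4 and 0.92 for AMIGO2. In 39 genes both effects were called and had opposite signs.

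By list, the members with a called difference, in either direction, numbered 28 of 38 interferon-stimulated genes, 12 of 17 MHC class I genes, 10 of 17 interferon factors, 9 of 16 NF-κB genes, 9 of 18 adhesion genes and effectors, 8 of 22 hypoxia genes and 7 of 17 chemokines. They numbered 7 of 23 AP-1 targets, 7 of 15 Hedgehog and HOXB genes, 6 of 18 MAPK feedback genes, 6 of 19 mesenchymal genes, 5 of 23 YAP/TEAD targets, 4 of 19 TNF receptors and adaptors, 4 of 21 cytokines, 4 of 16 AP-1 family members, 4 of 20 apoptosis regulators and 4 of 12 p53 targets. In the mitosis list there were 2 of 26, among epithelial genes 1 of 20, among unfolded protein and amino acid stress genes 1 of 22 and among BT549 identity genes 1 of 8. Over all genes the share was 5.47%, and the first 3 of these last lists lie near it.

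Probe sets outside the comparison also responded to TNFα with c-Jun siRNA. Of 2055 probe sets with several symbols 321 were called (15.6%), and of 12061 with no symbol 595 (4.93%).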

How the results depend on the processing

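With the position column as a fixed block the c-Jun siRNA response gave 2376 calls in place of 5320, and the difference between the siRNAs 531 in place of 983; at an adjusted p under 0.01 the difference gave 553. The cause of the first pair was not tested. Leaving out 1 array gave 4661 to 4944 calls for c-Jun siRNA, 5759 to 5889 for control siRNA and 774 to 1009 for the difference. With the replicate number as a block the counts were 5249, 6333 and 937; it moved no count by over 1.5 times. Averaging TNFα replicates 1 and 3 with c-Jun siRNA gave 4809 and 867 for the difference. In the column block B3GALT1 changed sign to 0.1384 and RAB30 to 0.0786 with c-Jun siRNA, and with values floored at 5 the difference for VCAM1 became 0.027. Of 238 named genes called with c-Jun siRNA, 163 kept the call in every alternative tried, and of 132 named differences 84 did. The difference could not be fitted from the arrays of a single siRNA.

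Limits are few. In the simulation the test of the difference recovered 22.4% of differences of 0.25. Fewer genes were changed there than were called in the data, so the share missed in the data is not known. Genes near the bottom of the scale, such as IFNB1 and CXCL9, have little signal above background, and detection calls were not used here. All 3 c-Jun siRNA vehicle arrays have position column 5 as their names were read, so column and treatment cannot be told apart within that siRNA. What the code in the names means is not given. For some genes another probe set moved less, as for SAA2 (0.54 against 2.69) and LIF (0.79 against 3.15).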
